A study of Mus musculus with 23 samples.

Results

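Cd7 and 9 other genes for glycoproteins of the T cell surface were followed across 8 groups of cultured mouse CD4+ T cells. Cd7 was chosen by its measured level, which was lower in stimulated cells labelled knockout than in those labelled wild type, and Cd2, Cd5, Cd6, Cd48, Cd52, Cd69, Thy1, Ptprc and Spn were listed with it as surface genes. All 10 were found among the 53379 genes of the deposited count table, and all 10 passed the filter on low counts that left 16882 genes for testing. The cells were splenic T cells of C57BL/6 background, sorted as CD45+CD3+CD4+CD8- and cultured for 72 h with IL-2 at 30 IU/ml. The stimulated groups also received antibodies against CD3 and CD28, and niacin was given at 5 mM. There were 4 stimulated groups: knockout label with niacin, wild-type label with niacin, knockout label without niacin and wild-type label without niacin. The same 4 combinations were kept in IL-2 alone as unstimulated groups. Each group held 3 libraries, except for 2 of the unstimulated knockout-labelled cells with niacin. The knockout is labelled Gpr109a-/-. The niacin receptor gene that this symbol stands for is listed as Hcar2 in the annotation. The labels do not describe the deleted allele, and they do not say whether the libraries of a group came from separate animals. The p-values therefore measure the spread between these libraries, which may be technical.

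The surface of a T cell is crowded with glycoproteins that set how strongly it adheres to other cells and how strongly its antigen receptor signals. CD2 binds CD48 in the mouse and holds a T cell to its partner cell, while CD5 and CD6 recruit enzymes that restrain receptor signalling. CD45, encoded by Ptprc, is a tyrosine phosphatase that removes an inhibitory phosphate from Lck, and CD43, encoded by Spn, is a long mucin-like molecule linked to the cytoskeleton through ezrin and moesin. CD69 is a lectin-like protein that appears early after activation and keeps the lipid receptor S1PR1 off the surface. Thy1, CD48 and CD52 are held in the membrane by a lipid (GPI) anchor. CD7 is a small immunoglobulin-fold protein of T cells and NK cells, and in humans it binds SECTM1 and galectin-1.

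Total counts ran from 13205565 to 30090018 per library, with a median of 24007159. The targeted gene went against its label. Hcar2 had 169 counts over the 11 knockout-labelled libraries, with counts in 10 of them, and 1 count over the 12 wild-type-labelled libraries. Genotype is therefore named here only as a label. All 10 T cell markers had counts in every library, with Cd3e between 606 and 886 and Cd4 between 400.3 and 653 CPM (the count scaled to library size with TMM factors). Cd8a reached at most 5.03 CPM, while the other CD8 marker, Cd8b1, had 7.02 to 28.9 CPM and counts in all 23 libraries. The B cell factor Pax5 reached at most 0.0825 CPM. The B cell marker Cd79a reached 7.14 CPM and also had counts in all 23 libraries. Low shares of mitochondrial counts within their group set 4 libraries apart, by no fixed cutoff. They were libraries 1 and 2 of the wild-type-labelled stimulated group given niacin (0.187% and 0.216%, against 0.605% in library 3), library 3 of the unstimulated knockout-labelled group (0.407%, against 0.643% and 0.795%) and library 1 of the unstimulated wild-type-labelled group (0.346%, against 0.802% and 0.937%). Library 3 of the knockout-labelled stimulated group given niacin was not set apart. Its share was 0.374%, against 0.562% and 0.514% in its group, which is below the 0.407% of a library that was. It stayed in the fits without the 4 libraries. Library 3 of the unstimulated knockout-labelled group stood out by more than its mitochondrial share. Compared with libraries 1 and 2 of its group, it gave a chi-square per gene of 259 and 248. No other pair of replicates exceeded 76.3. It also had the fewest counts, 13205565, where the next smallest library had 20604050. Its count column is the only one whose deposited name lacks the tag "jax", and the header does not say what the tag means.

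The genes lie on 8 chromosomes in the deposited table, whose notes name the builds GRCm38.p5 and mm10. Cd7 is at chr11:121036747-121039418 on the minus strand, Cd2 at chr3:101275899-101287939 (minus), and Cd5 at chr19:10718143-10738974 (minus) next to Cd6 at chr19:10789341-10830058 (minus). Cd48 is at chr1:171682009-171705258 (plus), Cd52 at chr4:134082448-134095082 (minus), Cd69 at chr6:129267325-129275436 (minus) and Thy1 at chr9:44043384-44048579 (plus). Ptprc spans chr1:138062861-138175708 (minus) and Spn spans chr7:127132232-127137823 (minus). All 10 are protein-coding. The counts cover all exons of a gene, so the CD45 isoforms made by splicing cannot be told apart. No source used here states whether the counting used strand. The antisense gene over Cd7, Gm11775, had at most 2 counts in a library. Crybg2 overlaps Cd52 on the other strand and had 4.16 to 17.8 CPM, and A130071D04Rik overlaps Ptprc on the same strand with 2.12 to 41.8 CPM. Gm37010 overlaps Cd48 on the same strand with 0.286 to 2.66 CPM.

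RefSeq promoter sequence (GRCm38.p6, 250 bases before to 50 after the start) was matched for 4 of the 10 genes. All 4 are shown, since no promoter sequence was available for the other members. Ptprc and Spn fell with stimulation, while Cd5 and Cd48 did not and were higher where they passed. Capitals mark GGAAGT or its reverse complement ACTTCC, a core read by ETS factors, a family active in lymphocytes. This motif was chosen after the sequences had been seen. Each sequence runs 5′ to 3′ on the strand of its gene.

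Ptprc: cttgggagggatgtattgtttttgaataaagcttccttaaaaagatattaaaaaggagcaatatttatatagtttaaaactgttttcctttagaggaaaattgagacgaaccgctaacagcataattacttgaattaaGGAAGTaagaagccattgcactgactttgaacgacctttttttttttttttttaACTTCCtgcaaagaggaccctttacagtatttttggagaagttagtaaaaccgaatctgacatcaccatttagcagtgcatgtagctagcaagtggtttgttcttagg

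Spn: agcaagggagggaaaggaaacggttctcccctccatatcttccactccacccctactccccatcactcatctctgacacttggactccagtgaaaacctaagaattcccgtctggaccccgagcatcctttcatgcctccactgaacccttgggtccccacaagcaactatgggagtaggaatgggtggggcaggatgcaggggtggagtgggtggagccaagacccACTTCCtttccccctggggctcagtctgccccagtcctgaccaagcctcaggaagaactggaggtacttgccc

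Cd48: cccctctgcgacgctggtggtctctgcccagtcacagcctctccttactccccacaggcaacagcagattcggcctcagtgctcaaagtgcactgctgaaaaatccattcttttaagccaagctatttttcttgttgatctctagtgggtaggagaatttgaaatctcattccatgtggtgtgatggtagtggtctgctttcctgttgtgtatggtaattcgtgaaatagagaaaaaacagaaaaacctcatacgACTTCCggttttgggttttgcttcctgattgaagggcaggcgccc

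Cd5: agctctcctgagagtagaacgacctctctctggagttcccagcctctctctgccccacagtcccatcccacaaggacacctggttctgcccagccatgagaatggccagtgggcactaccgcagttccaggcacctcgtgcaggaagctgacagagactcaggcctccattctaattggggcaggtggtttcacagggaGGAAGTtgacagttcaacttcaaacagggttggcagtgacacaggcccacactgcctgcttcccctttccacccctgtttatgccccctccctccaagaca

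The Ptprc window is chr1:138175256-138175555 (minus) and holds the motif at 2 places, 1 on each strand. It lies inside the deposited span of Ptprc, which runs to 138175708, so the RefSeq start used for it is not that of the deposited table. The windows of Spn (chr7:127137774-127138073, minus), Cd48 (chr1:171681742-171682041, plus) and Cd5 (chr19:10738925-10739224, minus) hold 1 copy each. Of 32851 mouse promoters of the same length, 23.8% hold it on either strand. The motif was thus present both in promoters of genes that fell with stimulation and in those of genes that did not, and a match in these letters is not a binding site.

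Levels per length of transcript spread widely among the members. Cd2 had the highest median over the 23 libraries, 494 CPM per kilobase, followed by Cd52 at 340.1, Cd48 at 177, Cd5 at 133 and Cd6 at 123 CPM per kilobase. Ptprc and Thy1 were close together at 46.7 and 45.7 CPM per kilobase. Spn had 27.3, Cd7 14.0 and Cd69 8.32 CPM per kilobase. Behind Cd7 stood 59 to 1117 counts per library, the fewest of the 10 genes, and behind Ptprc 7878 to 45558 counts.

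**Figure D1:**
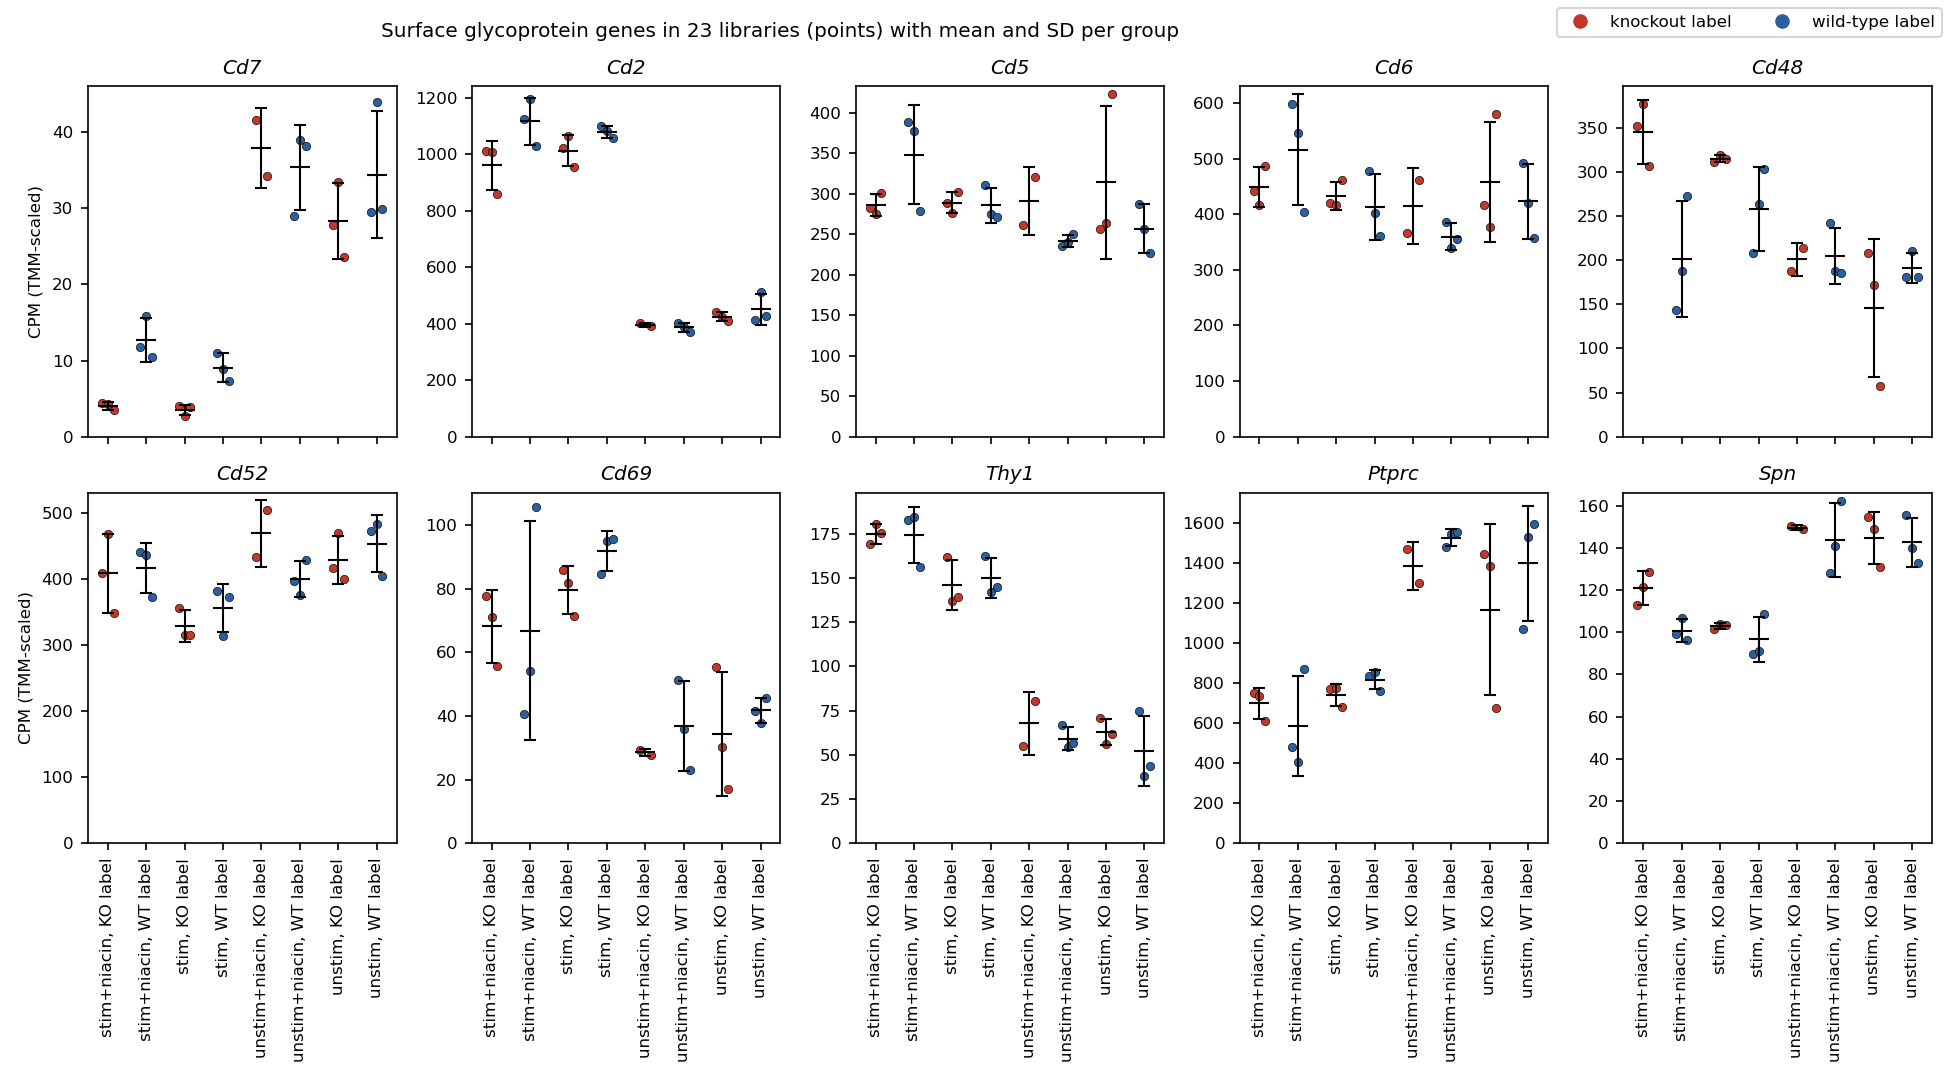
TMM-scaled CPM (linear axes from 0) of the 10 genes in each of the 23 libraries (points), with the mean and SD of each group in black; red is the knockout label and blue the wild-type label. Cd7 lies between 2.72 and 15.9 CPM in the 12 stimulated libraries and between 23.6 and 44.0 CPM in the 11 unstimulated libraries, while Cd2 and Thy1 show the opposite order.

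Cd7 was lower in all 12 stimulated libraries than in any unstimulated library. With niacin, it had 4.35, 4.27 and 3.47 CPM in stimulated knockout-labelled cells, against 41.6 and 34.2 CPM in unstimulated knockout-labelled cells. In wild-type-labelled cells with niacin it had 11.8, 15.9 and 10.4 CPM when stimulated and 29.0, 39.0 and 38.2 CPM when unstimulated. Neither pair of groups overlapped. The transcript fell by 3.23 ± 0.25 (SE) on the log2 scale under the knockout label (9.40-fold lower, edgeR adjusted p = 6.52e-09). Under the wild-type label it fell by 1.48 ± 0.22 (2.79-fold lower, edgeR adjusted p = 1.64e-05). In bulk RNA such as this, less RNA per cell and fewer cells carrying it cannot be told apart. Without niacin, Cd7 had 3.96, 2.72 and 3.85 CPM in stimulated knockout-labelled cells, against 27.8, 33.5 and 23.6 CPM in unstimulated ones. Stimulated wild-type-labelled cells without niacin had 11.04, 8.83 and 7.34 CPM, against 29.5, 44.0 and 29.9 CPM in unstimulated ones. The log2 differences were -3.01 under the knockout label and -1.93 under the wild-type label, given without a test because the stimulated libraries without niacin had chosen the gene.

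By label, Cd7 separated the stimulated groups and not the unstimulated ones. The comparison that chose it, stimulated cells without niacin, gave a mean of 3.51 ± 0.690 CPM under the knockout label and 9.07 ± 1.87 CPM under the wild-type label (SD, n = 3 each), a log2 difference of -1.37. There Cd7 was the 8th of 19 genes past the threshold in order of p, and 1 of the 10 members passed where 0.113% of all tested genes did (0.0474% higher and 0.0652% lower). Nothing is read from these counts, since the choice fixed them. In stimulated cells with niacin, whose libraries are separate ones, the means were 4.03 ± 0.490 CPM under the knockout label and 12.7 ± 2.85 CPM under the wild-type label (SD, n = 3 each). The highest knockout-labelled library, at 4.35 CPM, lay below the lowest wild-type-labelled one, at 10.4 CPM. The log2 difference was -1.65 ± 0.23 (3.15-fold lower under the knockout label, edgeR adjusted p = 0.00144). Cd7 was the 1 member of the 10 past the threshold in this comparison, where 1.44% of all genes passed (0.575% higher and 0.865% lower). It is not recorded whether the choice of Cd7 also drew on the niacin comparison, so this test is not fully independent of the choice.

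The Cd7 difference in niacin rests in part on the wild-type-labelled libraries with few mitochondrial counts, numbers 1 and 2, which had 11.8 and 15.9 CPM against 10.4 CPM in number 3. Without both, Cd7 differed by -1.39 on the log2 scale (edgeR adjusted p = 0.158), with the single library left assumed to vary like the other groups. Without all 4 libraries set apart, it differed by -1.39 as well (edgeR adjusted p = 0.0459). Their part in the result was not tested.

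Among unstimulated cells the ranges of Cd7 overlapped between labels. With niacin, the means were 37.9 ± 5.23 CPM under the knockout label (SD, n = 2) and 35.4 ± 5.56 CPM under the wild-type label (SD, n = 3), a log2 difference of 0.10 ± 0.24 (edgeR adjusted p = 1.00). Without niacin they were 28.3 ± 4.96 CPM under the knockout label and 34.4 ± 8.29 CPM under the wild-type label (SD, n = 3 each), a log2 difference of -0.28 ± 0.22 (edgeR adjusted p = 0.662). None of the 10 members passed in either comparison, where 0.0355% of all genes with niacin (0.0296% higher and 0.00592% lower) and 0.0415% without it did, and none had an unadjusted edgeR p under 0.05 or passed with DESeq2. The mean of the label differences over the 3 conditions other than stimulated cells without niacin, with the same limit on its independence, was -0.61 ± 0.13 (edgeR adjusted p = 0.112), in a comparison where 0.107% of all genes passed (0.0711% higher and 0.0355% lower). DESeq2 put the mean difference of Cd7 past the threshold (adjusted p = 0.00456), as did edgeR without the filter on low counts (adjusted p = 0.0193).

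Whether the fall of Cd7 on stimulation differed by label was tested among the libraries with niacin. This test holds the label difference of stimulated cells with niacin, so it too is not fully independent of the choice of Cd7. The fall was larger by 1.75 ± 0.33 on the log2 scale under the knockout label, with an unadjusted p of 3.33e-05 and an edgeR adjusted p of 0.181. No gene passed in this interaction, a share of 0.0%. DESeq2 gave Cd7 an adjusted p of 0.000963, and edgeR without the low-count filter gave 0.00184. These were among 4 of 20 other settings in which Cd7 passed, and in the rest it did not. The log2 difference ran from -1.89 to -1.49 over the 20 settings. Over all 8 groups the order of mean Cd7 levels had 2 gaps where neighbouring groups did not overlap. One lay between the lowest unstimulated mean, 28.3 CPM (knockout label without niacin), and the highest stimulated mean, 12.7 CPM (wild-type label with niacin). The other lay between 9.07 CPM (stimulated wild-type label without niacin) and 4.03 CPM (stimulated knockout label with niacin). This second gap uses libraries that chose Cd7, so the choice partly fixed it and nothing is read from it. Niacin itself did not pass for Cd7. In unstimulated cells the log2 difference with niacin was 0.42 ± 0.24 under the knockout label (edgeR adjusted p = 0.69) and 0.04 ± 0.22 under the wild-type label (edgeR adjusted p = 1.00). In stimulated cells it was 0.20 under the knockout label and 0.49 under the wild-type label, values given without a test.

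**Figure D2:**
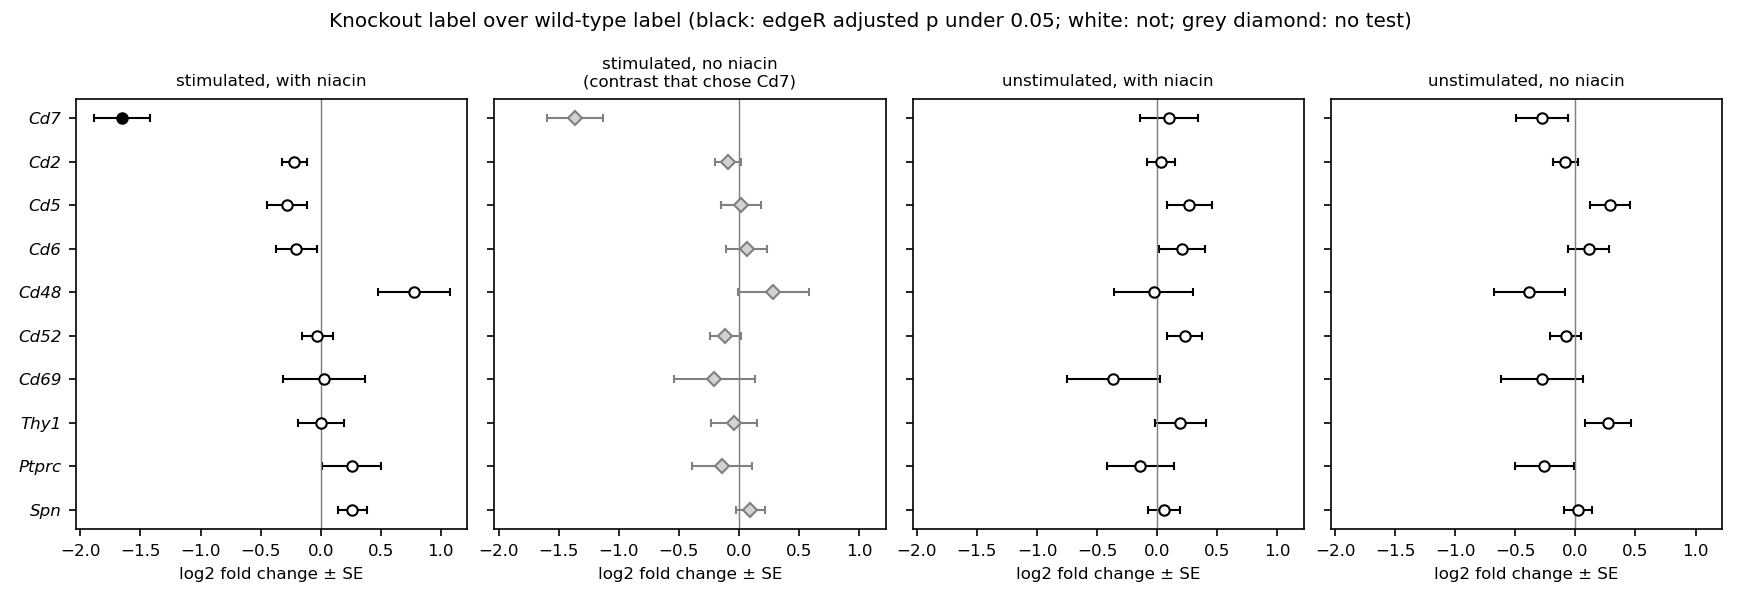
Log2 fold change ± SE of each gene, knockout label over wild-type label, in stimulated cells with and without niacin and in unstimulated cells with and without niacin (4 panels); black points passed edgeR's adjusted p of 0.05, white ones did not, and grey diamonds have no test. Cd7 stands at -1.65 and -1.37 in the stimulated panels, the second of which chose it, and at 0.10 and -0.28 in the unstimulated panels, while Cd48 stands at 0.78 in stimulated cells with niacin without passing.

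The 5 genes whose log2 CPM followed that of Cd7 most closely over the 23 libraries were Fbxo32 (Pearson's r = 0.985), Arl5c (0.982), Acss1 (0.978), Txnip (0.978) and Rnf32 (0.975), of 9742 genes compared. These values describe libraries that share the same strong contrast between stimulated and unstimulated cells, and they carry no p. The genes were picked over all 23 libraries, those that chose Cd7 included. Their levels by label are thus partly fixed by the choice and are given as a description. Fbxo32 encodes a subunit of a ubiquitin ligase, Acss1 a mitochondrial acetyl-CoA synthetase and Txnip a thioredoxin-binding protein that limits glucose uptake. Fbxo32 had 8.08 ± 1.55 CPM in stimulated knockout-labelled cells with niacin and 16.9 ± 0.524 CPM in stimulated wild-type-labelled cells with niacin (SD, n = 3 each). In the same cells Txnip had 259 ± 32.0 CPM under the knockout label and 503 ± 34.2 CPM under the wild-type label (SD, n = 3 each). Among the members, Ptprc (r = 0.70), Spn (0.70) and Cd52 (0.63) varied with Cd7, and Thy1 (-0.85), Cd2 (-0.84), Cd69 (-0.73) and Cd48 (-0.63) varied against it. Cd5 and Cd6 lay closer to 0, at -0.21 and -0.23.

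CD7 ligands and related immunoglobulin-fold genes were followed as a list of 11, of which 9 passed the low-count filter. In stimulated knockout-labelled cells without niacin 2 rose and 4 fell, and in stimulated wild-type-labelled cells without niacin 2 rose and 4 fell. Over all genes tested, 25.2% were higher and 27.5% lower in the knockout-labelled comparison, and 23.4% were higher and 21.7% lower in the wild-type-labelled one. The counts of the other partner lists on stimulation without niacin stand beside the same shares. The medians of the list were 0.22 and 0.41 on the log2 scale, against -0.13 and -0.07 for all genes. Sectm1a, named after the ligand SECTM1, passed under neither label. Its log2 changes were 4.28 ± 2.10 under the knockout label and 1.79 ± 1.70 under the wild-type label (edgeR adjusted p = 0.0928 and 0.404). Cd47, whose product signals to phagocytes not to engulf the cell, rose by 0.91 ± 0.11 and 0.77 ± 0.11 under the knockout and wild-type labels. Pvr, which encodes a ligand of the receptors TIGIT and CD226, rose by 0.86 ± 0.22 and 1.04 ± 0.22, and the knockout call was lost with only the compared groups (edgeR adjusted p = 0.0822). Cd160, a receptor gene of cytotoxic lymphocytes, fell, with log2 changes of -2.82 ± 0.59 and -3.51 ± 0.60, and Cd200r1, an inhibitory receptor gene, fell, with log2 changes of -2.19 ± 0.39 and -1.91 ± 0.38. No gene of this list passed in any comparison by label or niacin.

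CD7 is also a protein of NK cells, so markers of NK and gamma delta T cells are given beside it. Of 12 such genes 11 were tested, and the natural killer receptor gene Klra8 had no count in any library. With niacin, 8 fell and 1 rose on stimulation under the knockout label, and 9 fell and 1 rose under the wild-type label. Of all genes, 25.3% were lower and 24.5% higher under the knockout label, and 26.6% lower and 26.0% higher under the wild-type label. Eomes, a transcription factor gene that activated T cells also express, rose, with 77.8 to 91.6 CPM in stimulated knockout-labelled cells with niacin and 72.3 to 92.0 CPM in the wild-type-labelled ones, against 5.89 to 6.83 and 3.54 to 7.55 CPM in the unstimulated ones. Leaving Eomes out, a step chosen after the values were seen, the list summed to 26.7 to 33.7 CPM in stimulated knockout-labelled cells with niacin and 16.5 to 29.1 CPM in stimulated wild-type-labelled cells with niacin. Without niacin the stimulated sums were 22.97 to 30.2 CPM under the knockout label and 26.2 to 36.0 CPM under the wild-type label. The unstimulated sums were 117 to 171, 89.7 to 240.4, 83.6 to 142 and 104 to 159.7 CPM in the 4 groups in the same order. Ncr1, a defining NK receptor gene, had 6 counts in the 3 stimulated knockout-labelled libraries with niacin and 1 count in the 3 stimulated wild-type-labelled libraries with niacin. Klrb1c, another NK receptor gene, had the opposite order by label there, with 3 and 13 counts. In unstimulated cells with niacin, Ncr1 had 68 counts under the knockout label (2 libraries) and 114 under the wild-type label (3 libraries). Klrb1c had 223 and 494 counts in them. These markers moved with Cd7 on stimulation, and their part in its fall was not tested. By label none of the 11 passed in stimulated cells with niacin, where the sums of both labels overlapped.

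On stimulation, between 4 and 7 of the 9 members other than Cd7 passed in the 4 comparisons. Without niacin, 7 of the 9 members other than Cd7 passed under the knockout label (4 higher and 3 lower), where 25.2% of all genes were higher and 27.5% lower, 52.7% in all. Likewise 6 of these 9 passed under the wild-type label (3 higher and 3 lower), where 23.4% were higher and 21.7% lower, 45.1% in all. With niacin 5 of the 10 passed under the knockout label (3 higher and 2 lower, Cd7 among the lower ones, hence 4 of the other 9), where 24.5% were higher and 25.3% lower, 49.8% in all. There were 8 of 10 under the wild-type label (5 higher and 3 lower), where 26.0% were higher and 26.6% lower, 52.6% in all. About every other gene tested thus passed, and the members' counts are not read as particular to them. The medians over all 10 members were -0.10, 0.06, 0.04 and 0.29 on the log2 scale, against -0.13, -0.07, -0.07 and -0.10 over all genes tested.

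**Figure D3:**
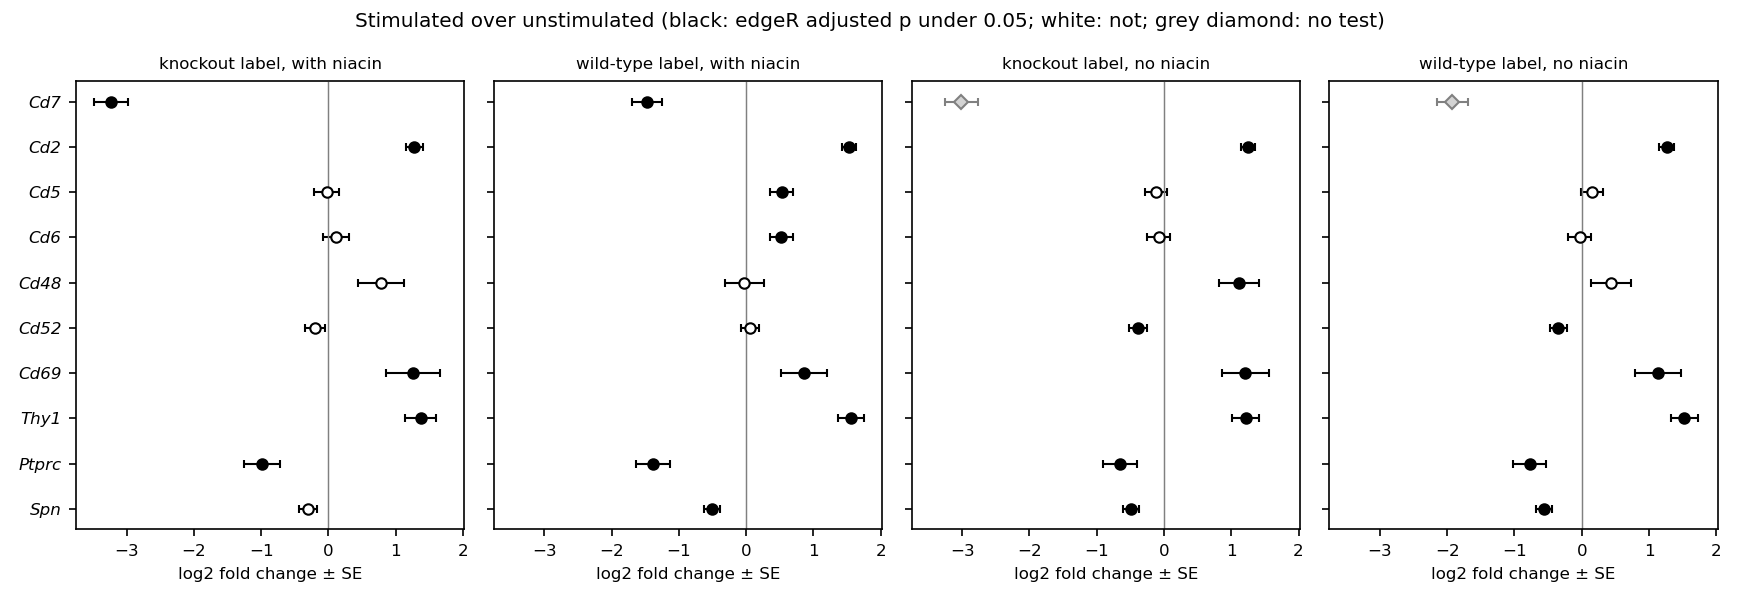
Log2 fold change ± SE of each gene, stimulated over unstimulated, in 4 panels (knockout and wild-type label with niacin, then knockout and wild-type label without it); black points passed edgeR's adjusted p of 0.05, white ones did not, and grey diamonds have no test. Cd2, Thy1 and Cd69 lie right of 0 and Cd7 and Ptprc left of 0 in every panel, with Cd2 between 1.25 and 1.53.

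Cd2 and Thy1 rose in all 4 stimulation comparisons. Without niacin and under the wild-type label, Cd2 had 1099, 1084 and 1056 CPM in stimulated cells, against 411, 514 and 427 CPM in unstimulated cells. In knockout-labelled cells without niacin it had 1021, 1065 and 953 CPM in stimulated cells, against 442, 424 and 409.9 CPM in unstimulated cells. The groups did not overlap, and the log2 changes were 1.25 ± 0.11 under the knockout label and 1.26 ± 0.11 under the wild-type label (edgeR adjusted p = 1.25e-08 and 1.3e-08). With niacin Cd2 rose by 1.28 ± 0.12 under the knockout label and 1.53 ± 0.11 under the wild-type label (edgeR adjusted p = 1.01e-07 and 7.12e-10). Thy1 had 163, 142 and 145 CPM in stimulated wild-type-labelled cells without niacin, against 74.6, 38.0 and 43.8 CPM in unstimulated ones. In knockout-labelled cells without niacin it had 162, 137 and 139 CPM when stimulated and 71.0, 56.1 and 61.7 CPM when unstimulated. Its log2 changes were 1.21 ± 0.20 under the knockout label and 1.52 ± 0.20 under the wild-type label (edgeR adjusted p = 3.41e-05 and 3.26e-06). They were 1.37 ± 0.23 and 1.56 ± 0.20 with niacin under the knockout and wild-type labels (edgeR adjusted p = 5.49e-05 and 1.88e-06). Neither gene lost its call under any other setting tried, each library of the compared groups left out in turn included.

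Cd48, the ligand of CD2, was less even. Knockout-labelled cells without niacin had 312, 319 and 315 CPM in stimulated cells, against 208, 172 and 57.4 CPM in unstimulated cells. It rose by 1.11 ± 0.30 there (edgeR adjusted p = 0.00405), and by 0.69 without the 4 libraries set apart (edgeR adjusted p = 0.00106). The call was lost when only the compared groups were fitted (1.06, edgeR adjusted p = 0.0784). The low value of 57.4 CPM is that of library 3, which has a low mitochondrial share. In stimulated wild-type-labelled cells with niacin it had 144, 188 and 273 CPM, against 242, 188 and 186 CPM in unstimulated ones, and the log2 change was -0.03 ± 0.30 (edgeR adjusted p = 0.949). The 2 lower of those stimulated values are those of libraries 1 and 2. Under the knockout label with niacin the log2 change was 0.78 ± 0.34 (edgeR adjusted p = 0.0602), which passed without the 4 libraries (0.73, edgeR adjusted p = 0.000622). Under the wild-type label without niacin it was 0.44 ± 0.30 (edgeR adjusted p = 0.234), which passed without the 4 libraries (0.40, edgeR adjusted p = 0.0372). Both also passed when only library 3 of the unstimulated knockout-labelled group was left out (edgeR adjusted p = 0.003 and 0.0457).

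By label, Cd48 in stimulated cells with niacin had 352, 378 and 306 CPM under the knockout label, against 144, 188 and 273 CPM under the wild-type label. The groups did not overlap, and the log2 difference of 0.78 ± 0.30 did not pass (edgeR adjusted p = 0.16). Without library 3 of the unstimulated knockout-labelled group, which takes no part in that difference but in the shared estimate of the spread, it passed (0.78, edgeR adjusted p = 0.0119). Without the 4 libraries it was 0.31 (edgeR adjusted p = 0.458).

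A list of 14 genes joined SLAM family genes with partners of that family and of CD2, adaptors such as Cd2ap included, and 11 were tested. On stimulation without niacin 6 rose and 3 fell under the knockout label, and 4 rose and 2 fell under the wild-type label, with medians of 0.69 and 0.28. Slamf7, which encodes a receptor that binds itself on other cells, had 64.4 ± 12.1 CPM in stimulated knockout-labelled cells and 7.88 ± 2.92 CPM in unstimulated ones (SD, n = 3 each), a rise of 3.01 ± 0.38. Slamf1 rose by 0.69 ± 0.18 and 0.78 ± 0.18 under the knockout and wild-type labels, and the knockout call was lost with only the compared groups (edgeR adjusted p = 0.0715). Cd84, another receptor gene of the family, fell, with log2 changes of -1.45 ± 0.28 and -1.36 ± 0.28. Cd2ap, which encodes an adaptor that binds the tail of CD2, fell, with log2 changes of -1.35 ± 0.27 and -0.80 ± 0.27. In unstimulated knockout-labelled cells Cd2ap was highest in library 3, at 73.4 CPM, against 41.2 and 37.7 CPM in libraries 1 and 2. The call of Cd2ap under the wild-type label was lost without library 2 or 3 of either group (edgeR adjusted p from 0.0613 to 0.078).

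Cd69 rose in all 4 stimulation comparisons. It had 84.5, 94.9 and 95.7 CPM in stimulated wild-type-labelled cells without niacin, against 41.7, 37.8 and 45.7 CPM in unstimulated ones, a rise of 1.14 ± 0.34 (edgeR adjusted p = 0.0106). In knockout-labelled cells without niacin it had 86.0, 81.7 and 71.2 CPM in stimulated cells, against 55.4, 30.1 and 17.1 CPM in unstimulated cells, a rise of 1.21 ± 0.34 (edgeR adjusted p = 0.00603). With niacin the rise was 1.26 ± 0.40 under the knockout label (edgeR adjusted p = 0.0125) and 0.87 ± 0.34 under the wild-type label (edgeR adjusted p = 0.039). In wild-type-labelled stimulated cells given niacin, libraries 1 and 2 had 40.7 and 54.2 CPM and library 3 had 106 CPM. The call there was lost without library 3 (0.37, edgeR adjusted p = 0.355) and without library 2 or 3 of the unstimulated wild-type-labelled group given niacin (0.85 and 0.62, edgeR adjusted p = 0.0902 and 0.177). It was also lost when only the compared groups were fitted (0.87, edgeR adjusted p = 0.0724). Without the 4 libraries set apart the rise was 1.51 (edgeR adjusted p = 0.000792). Under the knockout label with niacin, the call was lost without either unstimulated library (1.30 and 1.21, edgeR adjusted p = 0.0696 and 0.0809).

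Around Cd69, 9 of 11 partner and C-type lectin genes were tested. On stimulation without niacin 1 rose and 3 fell under the knockout label, and 1 rose and 6 fell under the wild-type label, with medians of -1.41 and -2.09. S1pr1, whose product CD69 holds inside the cell, had 116 ± 13.8 CPM in stimulated knockout-labelled cells, against 876 ± 232 CPM in unstimulated ones (SD, n = 3 each), and fell by 2.91 ± 0.22. S1pr1 under the wild-type label fell by 2.57 ± 0.21. Klrd1, which encodes the CD94 lectin of NK cells, fell, with log2 changes of -2.35 ± 0.58 and -4.15 ± 0.64 under the knockout and wild-type labels, moving with the NK markers above. Lgals1, encoding galectin-1, rose by 1.68 ± 0.26 and 1.21 ± 0.26.

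Ptprc and Spn, encoding the large glycoproteins CD45 and CD43, were lower after stimulation. In wild-type-labelled cells without niacin, Ptprc had 833, 856 and 763 CPM when stimulated and 1069.9, 1530.2 and 1595 CPM when unstimulated. In knockout-labelled cells without niacin it had 769, 776 and 679.7 CPM when stimulated and 1443, 1386 and 674 CPM when unstimulated. Library 3 of the unstimulated knockout-labelled group, at 674 CPM, lay among the stimulated values, and library 1 of the unstimulated wild-type-labelled group was the lowest of its group. The log2 changes of Ptprc were -0.66 ± 0.25 under the knockout label and -0.77 ± 0.25 under the wild-type label (edgeR adjusted p = 0.0321 and 0.0154). With niacin they were -0.99 ± 0.27 under the knockout label and -1.39 ± 0.25 under the wild-type label (edgeR adjusted p = 0.00533 and 0.000119). Without niacin, the call under the knockout label was lost without library 1 or 2 of the unstimulated group or any library of the stimulated group (edgeR adjusted p from 0.0574 to 0.143). The call under the wild-type label was lost without library 2 or 3 of the unstimulated group or library 3 of the stimulated group (edgeR adjusted p from 0.052 to 0.0645). With niacin it was lost under the knockout label without library 2 of the unstimulated group (edgeR adjusted p = 0.0519), and under the wild-type label without libraries 1 and 2 of the stimulated group (-0.84, edgeR adjusted p = 0.0548). A fit of only the compared groups took away the call under the knockout label without niacin (edgeR adjusted p = 0.0891). Without the 4 libraries set apart, the log2 changes of Ptprc were -0.97 and -0.94 without niacin under the knockout and wild-type labels and -1.04 and -0.84 with niacin, with edgeR adjusted p of 4.79e-07, 6.97e-07, 2.1e-07 and 0.000103.

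Spn had 89.8, 91.1 and 109 CPM in stimulated wild-type-labelled cells without niacin, against 155, 140.1 and 133 CPM in unstimulated ones. Knockout-labelled cells without niacin had 102, 104 and 103 CPM in stimulated cells, against 154, 149 and 131 CPM in unstimulated cells. Its log2 changes were -0.49 ± 0.12 under the knockout label and -0.56 ± 0.12 under the wild-type label (edgeR adjusted p = 0.00191 and 0.000733), and -0.51 ± 0.12 under the wild-type label with niacin (edgeR adjusted p = 0.00131). Under the knockout label with niacin the log2 change was -0.31 ± 0.13 (edgeR adjusted p = 0.0602), and it passed with DESeq2 (-0.39, adjusted p = 0.00381). Within each label, with or without niacin, every stimulated library had less Spn than every unstimulated one.

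**Figure D4:**
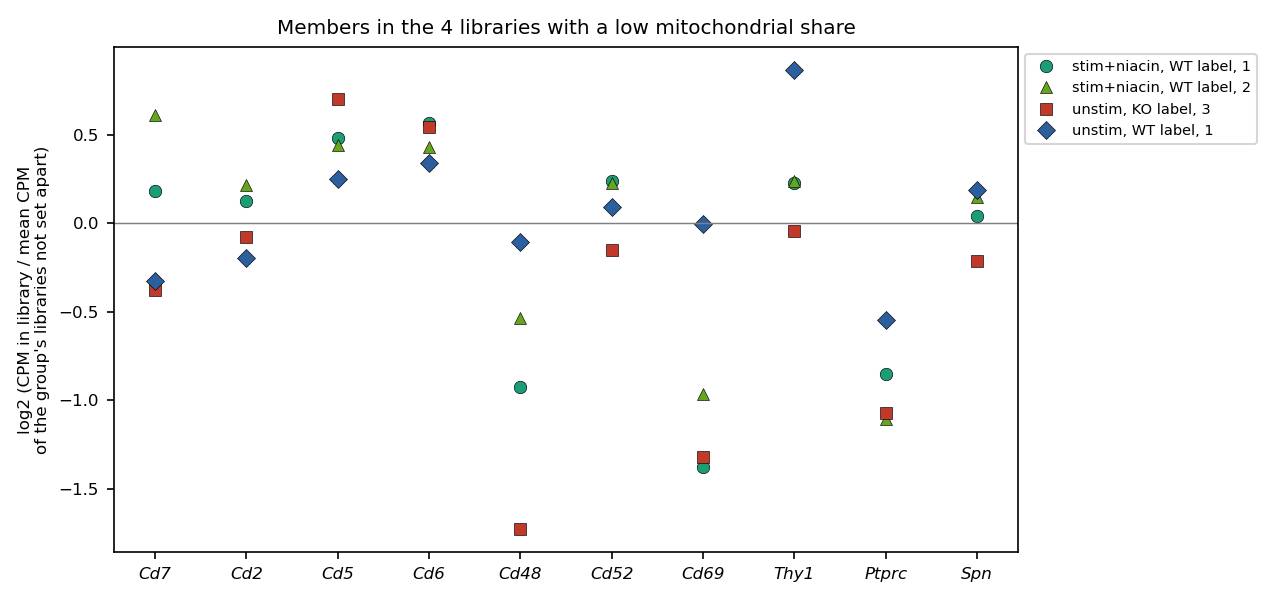
For each of the 4 libraries set apart for a low mitochondrial share, the log2 ratio of a gene's CPM to the mean CPM of those libraries of its group that were not set apart (library 3 alone for the stimulated pair), by gene. Ptprc lies below 0 in all 4, Cd48 and Cd69 lie well below 0 in 3 of them, and Cd5 and Cd6 lie above 0 in all 4.

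Each of the 4 libraries set apart was compared with the libraries of its group that were not, which leaves library 3 alone in the wild-type-labelled stimulated group given niacin. Ptprc was at 0.477, 0.685, 0.554 and 0.465 times the level of those libraries in library 3 of the unstimulated knockout-labelled group, in the first unstimulated wild-type-labelled library, and in libraries 1 and 2 of the wild-type-labelled stimulated group given niacin. In the same order Cd69 was at 0.400, 0.999, 0.385 and 0.513 times that level, and Cd5 at 1.63, 1.19, 1.40 and 1.36 times. Cd7 was at 0.770, 0.798, 1.14 and 1.53 times, lower in the unstimulated pair and higher in the stimulated pair. These ratios are descriptions of single libraries and have no test.

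Of 10 CD45 partner genes tested on stimulation without niacin, 2 rose and 1 fell under the knockout label, and 1 rose and 1 fell under the wild-type label, with medians of -0.11 and 0.26. With niacin 4 rose and 3 fell under the knockout label, where 24.5% of all genes were higher and 25.3% lower. Under the wild-type label with niacin 5 rose and 1 fell, where 26.0% were higher and 26.6% lower, and the medians were 0.48 and 0.43. Pag1, which encodes a membrane adaptor for the kinase CSK, fell, with log2 changes of -1.78 ± 0.25 and -1.38 ± 0.24 under the knockout and wild-type labels. Lgals1, whose product binds CD45, stood in this list too. Of the mucin-like proteins and membrane linkers grouped with Spn, 9 of 11 were tested. Without niacin, 1 rose and none fell under the knockout label, and under the wild-type label 2 rose and 1 fell, with medians of -0.09 and 0.03. Ezr, encoding ezrin, rose by 0.41 ± 0.13 and 0.37 ± 0.13 under the knockout and wild-type labels. Its call was lost under the knockout label without library 1 of the unstimulated group (edgeR adjusted p = 0.0532), and under the wild-type label without library 3 of the unstimulated group or library 2 or 3 of the stimulated group (edgeR adjusted p from 0.0524 to 0.106). The knockout call of Ezr was also lost without the low-count filter (edgeR adjusted p = 0.0699) and with only the compared groups (edgeR adjusted p = 0.131), and the wild-type call with RLE factors (edgeR adjusted p = 0.0515) and without the filter (edgeR adjusted p = 0.0985). Msn, encoding moesin, fell by 0.63 ± 0.16 under the wild-type label, and its change under the knockout label was -0.20 ± 0.16 (edgeR adjusted p = 0.299). Without library 3 of the unstimulated group Msn also passed under the knockout label (-0.44, edgeR adjusted p = 0.00112).

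**Figure D5:**
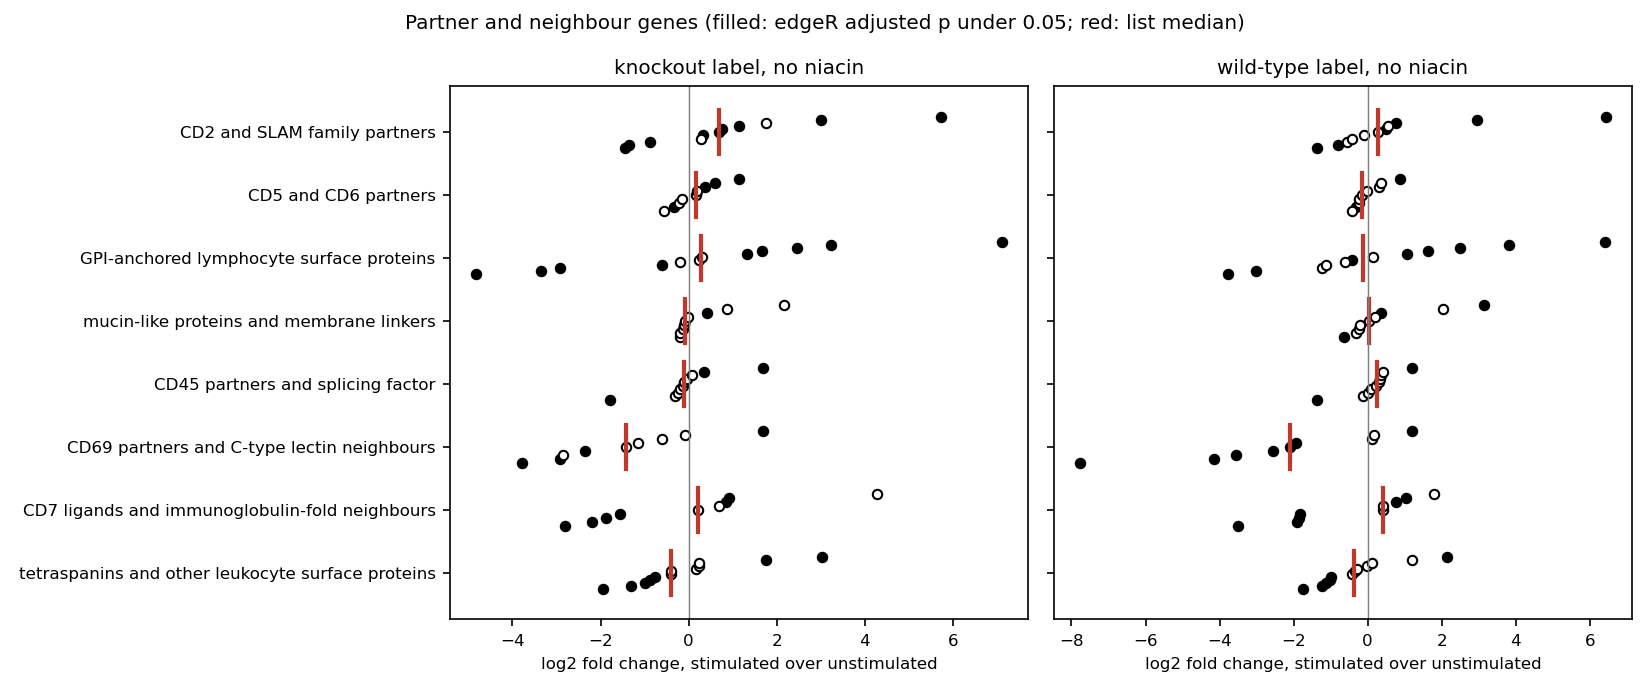
Fitted log2 fold change, stimulated over unstimulated without niacin, of each tested gene (points) in 8 lists of partners and neighbours, for the knockout label (left) and the wild-type label (right); filled points passed edgeR's adjusted p of 0.05 and red bars are list medians. The GPI-anchored list spreads far to both sides, with Cd24a at 7.12 and 6.40 and Art2b at -3.36 and -3.76, and the C-type lectin list has medians of -1.41 and -2.09.

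Cd52, a short GPI-anchored glycoprotein gene, was lower after stimulation without niacin. It had 356, 314 and 315 CPM in stimulated knockout-labelled cells, against 417, 469 and 399 CPM in unstimulated ones, and 382, 314 and 372 CPM in stimulated wild-type-labelled cells, against 473, 483 and 404 CPM in unstimulated ones. The groups did not overlap. Its log2 changes were -0.38 ± 0.13 under the knockout label and -0.35 ± 0.13 under the wild-type label (edgeR adjusted p = 0.0181 and 0.0339), and single libraries left out took the calls away. They were library 2 of the unstimulated group and libraries 2 and 3 of the stimulated group under the knockout label, with edgeR adjusted p from 0.0621 to 0.0748. Under the wild-type label they were libraries 1 and 2 of the unstimulated group and libraries 2 and 3 of the stimulated group, with edgeR adjusted p from 0.0517 to 0.156. The wild-type call of Cd52 was also lost without the 4 libraries set apart (edgeR adjusted p = 0.0519) and without the low-count filter (edgeR adjusted p = 0.135), and the knockout call when only the compared groups were fitted (edgeR adjusted p = 0.0664). With niacin the log2 changes were -0.20 ± 0.14 under the knockout label and 0.06 ± 0.13 under the wild-type label (edgeR adjusted p = 0.262 and 0.721). The difference of the stimulation change between cells with and without niacin was 0.18 ± 0.19 under the knockout label and 0.41 ± 0.18 under the wild-type label (edgeR adjusted p = 0.838 and 0.66), so the changes were not shown to differ.

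The named members of a list of other GPI-anchored genes were those with the largest changes. Of 13 in the list 12 were tested, and on stimulation without niacin 5 rose and 4 fell under the knockout label, and 5 rose and 3 fell under the wild-type label. Cd24a, a heat-stable antigen gene, had 32.2 ± 9.72 CPM in stimulated knockout-labelled cells, against 0.206 ± 0.161 CPM in unstimulated ones (SD, n = 3 each). Prnp, which encodes the prion protein, rose by 3.24 ± 0.16 and 3.82 ± 0.17 under the knockout and wild-type labels. Art2b, a surface ADP-ribosyltransferase gene that uses NAD, fell, with log2 changes of -3.36 ± 0.34 and -3.76 ± 0.34. Cd55, a complement regulator gene, fell, with log2 changes of -2.92 ± 0.39 and -3.03 ± 0.39. The list medians were 0.28 and -0.14.

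Cd5 and Cd6, neighbours on chromosome 19 and both restraints on receptor signalling, did not pass in 3 of the 4 stimulation comparisons. Cd5 ranged from 227 to 423 CPM and Cd6 from 339 to 599 CPM over all 23 libraries. In stimulated cells without niacin Cd5 changed by -0.12 ± 0.17 under the knockout label and 0.15 ± 0.17 under the wild-type label, and Cd6 by -0.08 ± 0.17 and -0.03 ± 0.17, with edgeR adjusted p from 0.473 to 0.888. Under the wild-type label with niacin both passed. Cd5 had 389, 377 and 278 CPM in stimulated cells, against 236, 239.7 and 250.2 CPM in unstimulated cells, a rise of 0.53 ± 0.17 (edgeR adjusted p = 0.0121). Cd6 had 599, 545 and 405 CPM in stimulated cells, against 386, 339 and 355 CPM in unstimulated cells, a rise of 0.52 ± 0.17 (edgeR adjusted p = 0.015). The higher pair of stimulated values in both genes came from libraries 1 and 2, which have low mitochondrial shares. Without them Cd5 changed by 0.18 (edgeR adjusted p = 0.579) and Cd6 by 0.15 (edgeR adjusted p = 0.649). Leaving out library 1 alone took both calls away (edgeR adjusted p = 0.0584 and 0.0844), and so did, for Cd6, leaving out library 2 of the unstimulated group (edgeR adjusted p = 0.0561). Of 9 tested partners of CD5 and CD6, 3 rose and 1 fell on stimulation without niacin under the knockout label, and 1 rose and 1 fell under the wild-type label. Ptpn6, encoding the phosphatase SHP-1, had 446 ± 28.9 CPM in stimulated knockout-labelled cells, against 200.4 ± 8.41 CPM in unstimulated ones (SD, n = 3 each), and rose by 1.15 ± 0.12. Ptpn6 under the wild-type label rose by 0.87 ± 0.11. Ubash3a, encoding another inhibitor of receptor signalling, fell by 0.31 ± 0.10 under the wild-type label, a call lost without library 2 or 3 of the stimulated group (edgeR adjusted p = 0.0616 and 0.064) and without the low-count filter (edgeR adjusted p = 0.221). Under the knockout label Ubash3a changed by -0.15 ± 0.10 (edgeR adjusted p = 0.22), and it passed with DESeq2 (adjusted p = 0.0199).

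Among tetraspanins and other leukocyte surface genes all 12 were tested. On stimulation without niacin 2 rose and 5 fell under the knockout label, and 1 rose and 5 fell under the wild-type label, with medians of -0.40 and -0.37. Cd81, encoding a tetraspanin, had 139 ± 6.60 CPM in stimulated knockout-labelled cells, against 41.3 ± 2.32 CPM in unstimulated ones, and 199.6 ± 13.6 CPM in stimulated wild-type-labelled cells, against 45.0 ± 6.70 CPM in unstimulated ones (SD, n = 3 each). Adgre5, encoding CD97, an adhesion receptor that binds CD55, fell, with log2 changes of -1.94 ± 0.12 and -1.74 ± 0.12 under the knockout and wild-type labels. Cd38, which encodes an NAD-consuming surface enzyme, fell by 1.22 ± 0.44 under the wild-type label (edgeR adjusted p = 0.0293), with 3.51 ± 1.65 CPM in stimulated and 8.17 ± 3.23 CPM in unstimulated cells (SD, n = 3 each). That call was lost without library 1 of the unstimulated group or library 3 of the stimulated group (edgeR adjusted p = 0.15 and 0.139), and without the 4 libraries set apart (-0.87, edgeR adjusted p = 0.119). The change of Cd38 under the knockout label was -0.40 ± 0.44 (edgeR adjusted p = 0.457).

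Niacin at 5 mM moved none of the members tested past the threshold in any of the 4 comparisons with edgeR or DESeq2, Cd7 having a test in the unstimulated ones. In edgeR the shares of all genes past it were 0.0% in both unstimulated comparisons, 0.00592% under the knockout label and 0.0% under the wild-type label in stimulated cells. At an unadjusted edgeR p under 0.05 there was no member in unstimulated cells, and none of the 9 members other than Cd7 in stimulated cells under the wild-type label. Under the knockout label there was Cd52, with a log2 difference of 0.31 ± 0.13 (edgeR adjusted p = 0.866). Cd52 had 408, 468 and 348 CPM in stimulated knockout-labelled cells with niacin, against 356, 314 and 315 CPM without it. Ptprc differed by -0.48 ± 0.25 with niacin in stimulated cells under the wild-type label (edgeR adjusted p = 0.522), and it passed without library 3 of the niacin group (-0.89, edgeR adjusted p = 0.0405). Its 3 values there were 481, 404 and 869 CPM, against 833, 856 and 763 CPM without niacin. Without the 4 libraries set apart its difference was 0.08 (edgeR adjusted p = 1.00). No tested member passed in the interactions of stimulation with niacin or of genotype label with stimulation by edgeR, where 0.0% of all genes did. Unadjusted p-values under 0.05 were found for no member in the niacin interaction under the knockout label, 2 under the wild-type label (Cd6 and Cd52) and 2 in the label interaction (Cd7 and Cd5).

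By label, the 9 members other than Cd7 did not pass in any condition. In stimulated cells with niacin their log2 differences ran from -0.28 (Cd5) to 0.78 (Cd48), and 3 of the 10 members (Cd7, Cd48 and Spn) had an unadjusted edgeR p under 0.05. Spn had 113, 121 and 129 CPM under the knockout label and 99.0, 107 and 96.3 CPM under the wild-type label, which did not overlap, and differed by 0.26 ± 0.12 (edgeR adjusted p = 0.231). Cd2 had 1013, 1007 and 860.2 CPM under the knockout label and 1123, 1196 and 1031 CPM under the wild-type label, and differed by -0.22 ± 0.11 (edgeR adjusted p = 0.264). In stimulated cells without niacin, the comparison that had chosen Cd7, the other 9 differed by -0.20 (Cd69) to 0.29 (Cd48), given as a description. The medians over the 10 members were -0.01 with niacin and -0.07 without it in stimulated cells, against -0.02 and -0.02 over all genes tested.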

How the data were processed

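Libraries of 23 T cell cultures were made with SMART-seq V4 and read from both ends, per the labels' protocols. The deposited values are raw read counts per gene, made by the authors with Trimmomatic 0.38, STAR 2.7.0e and featureCounts 1.6.3, per the submitters' processing notes, which name GRCm38.p5 and mm10. No source used here names the annotation release or the strand setting. GENCODE vM21 gave symbols for 53274 of 53379 IDs, of which 51335 lay at the same position. Cd5 was not among those, so its position is that of the deposited table.

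Counts were tested in R 4.3.3 with edgeR 4.0.16 (quasi-likelihood test). All 23 libraries entered 1 fit of group means, with TMM factors and filterByExpr at a minimum count of 10. This left 16882 genes. Benjamini-Hochberg adjustment ran over all tested genes within a comparison, at 0.05, over 16 comparisons. The common biological coefficient of variation was 27.4%, with 15 residual degrees of freedom. Standard errors came from the F statistic. Levels are CPM with TMM factors, and correlations used log2 CPM with a prior count of 2. The fit was tested on simulated data. Replicates were compared for duplicated libraries and none was found (the lowest chi-square per gene was 9.85). The highest, 259, was between libraries 1 and 3 of the unstimulated knockout-labelled group.

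The members, the partner and marker lists and the rule for naming genes were chosen with earlier results of these data known. Named were the 10 members, up to 2 genes per direction of each partner list with the largest changes past the threshold on stimulation of wild-type-labelled cells without niacin (at 5 CPM or more in a group), the 5 genes most like Cd7 (mean of 5 CPM or more) and Hcar2. Eomes, Ncr1, Klra8 and other markers named beside results, and Sectm1a, were picked after their values were seen. Cd7 was given no test in comparisons that use the stimulated libraries without niacin. Other settings were DESeq2 1.42.0, RLE factors, no filter, the replicate number as a block, only the compared groups, each library left out in turn, and libraries 1 and 2 of the wild-type-labelled stimulated group given niacin left out together. Leaving out the 4 libraries set apart for few mitochondrial counts, which were picked without a fixed cutoff, was added after seeing the data.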

Additional observations from a re-analysis of the deposited data

How the results depend on the processing

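No log2 fold change that passed in the fit reported changed its direction under another setting. The niacin difference of Ptprc in stimulated wild-type-labelled cells, which did not pass, was -0.89 without library 3 of the niacin group and 0.08 without the 4 libraries set apart. The count of members past the threshold, Cd7 included throughout, moved by more than 1.5 times as follows. When a fit held only the groups compared it was 5, against 8, for stimulation under the knockout label without niacin (Ptprc, Cd48 and Cd52 no longer passed), and 0, against 1, for the label in stimulated cells without niacin, where the choice of Cd7 fixed the count and nothing is read from it. Without a filter on low counts it was 2, against 1, for the label in stimulated cells with niacin, 1, against 0, for the label averaged over 3 conditions, and 1, against 0, for the label by stimulation interaction. DESeq2 also gave 1 in the last 2 of these. Without libraries 1 and 2 of the wild-type-labelled stimulated group given niacin the count was 5, against 8, for stimulation of those cells, and 0, against 1, for the label. The cause was not tested. With 1 library left out, counts for stimulation without niacin ran from 6 to 8 (knockout label) and from 5 to 8 (wild-type label). With niacin they ran from 3 (without library 2 of the unstimulated group) to 7 and from 6 to 8 in the same order. For niacin in stimulated wild-type-labelled cells the count ran from 0 to 1. For the label in stimulated cells it ran from 1 to 2 with niacin. Without niacin it ran from 0 to 1, a count that the choice of Cd7 bears on and from which nothing is read. For the label by stimulation interaction it ran from 0 to 1. In that interaction Cd7 passed without library 3 of the unstimulated knockout-labelled group (adjusted p = 0.0389) and without library 3 of the wild-type-labelled stimulated group given niacin (adjusted p = 0.0305). The latter fit left that group with libraries 1 and 2 only, both set apart for few mitochondrial counts. With DESeq2 and no filter included, Cd7 passed there in 4 of 20 other settings. Without the 4 libraries set apart, the counts for stimulation were 8, 7, 7 and 6.

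Over 77 pairs of libraries with the same replicate number in different groups, deviations from the group means correlated by a median of 0.0187. Of 23 libraries, 9 were closest to their own number. With the replicate number as a block, 206 of 206 values kept their call, and the label in stimulated cells with niacin gave 1 member past the threshold. The pairs were pooled over both labels, and the block was shared by both. These values therefore cannot tell whether a number marks the same animal within a label. Depth limits Cd7 most: 59 counts was its lowest value.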
